A study of Homo sapiens with 15 samples.

Results

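The comparison set the cisplatin-selected population Ov4Cis against the carboplatin-selected population Ov4Carbo, gene by gene. It used 6 of the 15 RNA samples of the study, 3 of each population, and all 16604 genes of the deposited expression table. Both populations were derived from OVCAR4, an established human cell line of high-grade serous ovarian cancer, by growth in rising drug concentrations until the IC50, a measure of the dose the cells withstand, was 2 to 10 fold that of the parental line. All lines were cultured in DMEM with 10% fetal bovine serum, and the labels state 3 biological replicates per line. The parental line, labelled Ovcar4Parental and sensitive to both drugs, and the single-cell lines Ov4Carbo4 and Ov4Carbo7, grown from Ov4Carbo and labelled carboplatin resistant, are given only as levels beside the comparison. Each drug is represented by 1 derived population, so an effect of the drug and a feature of the population that happened to grow out cannot be told apart. Both populations are resistant, so the contrast measures how they differ from each other, not resistance itself.

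Cisplatin and carboplatin are platinum compounds that carry the same pair of ammine ligands. Cisplatin has chloride leaving groups and carboplatin a slower-leaving dicarboxylate group, and both leave the same kinds of platinum crosslinks on DNA. Cells are known to withstand platinum by taking up less of it, exporting it, binding it to thiols such as glutathione and metallothionein, repairing or bypassing the lesions, or not entering apoptosis. A change of carcinoma cells from an epithelial to a mesenchymal state has also been linked to drug tolerance. In that transition repressors such as ZEB1 bind E-boxes in the promoters of junction genes, and cadherin 1, keratins and claudins give way to cadherin 2, vimentin and matrix proteins.

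The values are log2 RPKM (a read density per gene length and per sequencing depth, adjusted for GC content, on a log2 scale), so a difference of 1 is a 2-fold difference and a value of 0 is 1 RPKM. The depth of the libraries is unknown. Values far below 0 come from few or no reads and depend on the offset of the normalization. The lowest value in each of the 6 samples lay between -8.13 and -7.68, so a log2 fold change against such a value is large and uncertain in size. The difference on the log2(RPKM + 1) scale is given for the genes with the largest differences and a few others. Elsewhere it is not given and can be much smaller. Examples are HOXD8 (8.05 against 1.76), PCDHB5 (6.95 against 2.11), CDH1 (-6.40 against -2.95) and KLK6 (-5.54 against -1.55). PAX8, the transcription factor that marks the Müllerian lineage of serous carcinoma, lay between 5.66 and 6.12 in all 6 samples.

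Replicate 1 of Ov4Carbo stood apart from the other 2. Its title number belongs to the series that also holds the single-cell lines, whereas the Ov4Cis samples, the parental samples and Ov4Carbo replicates 2 and 3 carry numbers of the other series. The labels do not call these series batches. The root mean square difference over all genes was 0.41 log2 units on average between Ov4Cis samples (0.30 to 0.50), 0.69 between Ov4Carbo samples (0.57 to 0.77) and 1.21 between the populations (1.13 to 1.27). Ov4Carbo replicate 1 lay 0.89 from the Ov4Carbo7 samples on average, against 1.13 and 1.07 for replicates 2 and 3. Results that rest on it are given with and without it.

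The populations differed at 2288 genes, 13.8% of those tested, of which 1308 were higher in Ov4Cis (7.88% of all genes) and 980 lower (5.9%). A gene was called when the limma test gave a Benjamini-Hochberg adjusted p under 0.05 and the log2 fold change was at least 1 in size. The 3 values of one population lay wholly above or below the 3 of the other at 6806 genes, 41% of the table, and at 2176 of the called genes. The adjusted p alone passed at 5683 genes. Without Ov4Carbo replicate 1, 1498 genes were called higher (9.02%) and 1280 lower (7.71%), and 2155 of the 2288 genes were called in the same direction. The plot of fold change against level shows called genes over the whole range, with the largest fold changes at genes near the bottom of the scale in 1 population. Of the called genes, 1088 had a mean under log2 RPKM 1 in both populations. Restricting the test to the 12037 genes with a mean of at least 1 over all 15 samples left 385 higher and 455 lower. That mean includes the other lines, so it drops genes expressed in Ov4Cis alone, such as HOXD1. It keeps genes low in Ov4Cis alone, such as KRT19. With a mean of at least 0 in either population, 806 were higher and 744 lower.

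**Figure D1:**
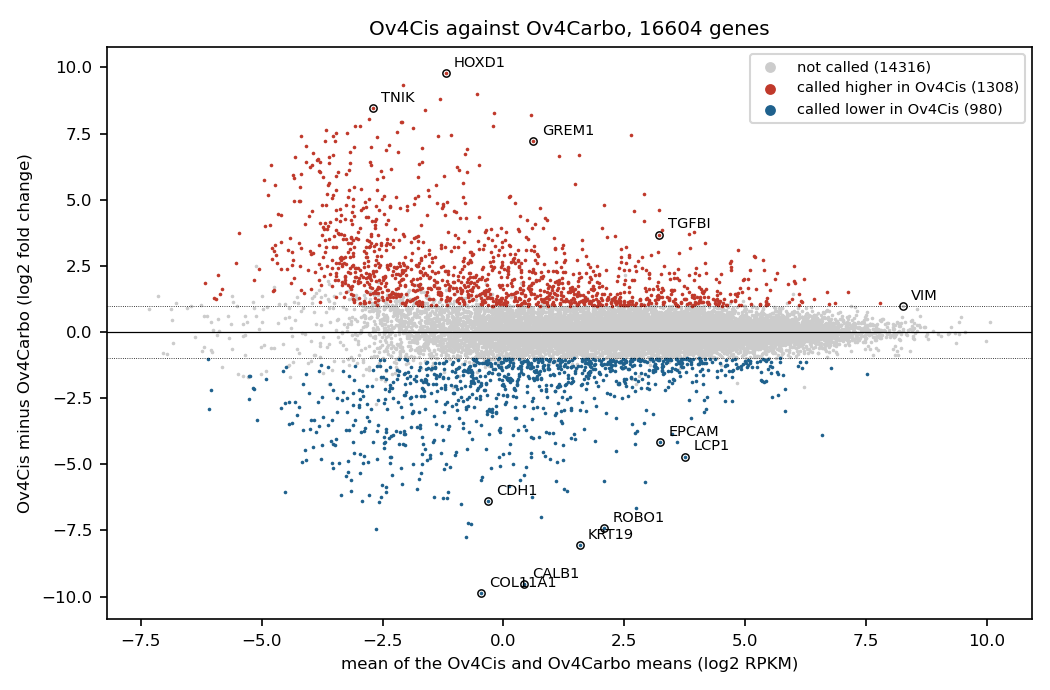
Each point is 1 of 16604 genes, with the mean of the Ov4Cis and Ov4Carbo means (log2 RPKM) on the x axis and the log2 fold change Ov4Cis minus Ov4Carbo on the y axis; red marks the 1308 genes called higher in Ov4Cis and blue the 980 called lower, with dotted lines at a log2 fold change of 1 and -1. Circled genes are named in the text; COL11A1 and CALB1 lie near -10, HOXD1 near 10 and VIM just under 1.

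The genes with the largest differences were close to silent in 1 population and expressed in the other. HOXD1, a homeobox transcription factor, stood at 3.45, 4.26 and 3.38 in Ov4Cis and at -6.88, -4.95 and -6.45 in Ov4Carbo (log2 fold change 9.79, SE 0.44, adjusted p = 1.27e-08; 3.79 on the log2(RPKM + 1) scale). It was also low in the parental line, with a mean of -6.47. HP, the haemoglobin-binding acute phase protein haptoglobin, followed with 9.33 (2.80 on the log2(RPKM + 1) scale), although reads of HP and its near-identical neighbour HPR may be shared. The long noncoding RNA LINC02167 (9.01), the zinc finger gene ZNF385D (8.81) and the kinase TNIK, a partner of the Wnt effector TCF4 (8.47), completed the 5 largest differences of this kind. On the log2(RPKM + 1) scale LINC02167, ZNF385D and TNIK differed by 4.01, 3.23 and 1.96. In these 5 genes every Ov4Cis value was above 1 and every Ov4Carbo value below -3.

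Among the genes higher in Ov4Carbo, COL11A1, a minor fibrillar collagen chain known from invasive carcinomas, led. Its values were 4.31, 4.12 and 4.98 in Ov4Carbo and -4.60, -5.84 and -5.75 in Ov4Cis (log2 fold change -9.87, SE 0.41, adjusted p = 5.13e-09). The single-cell lines held opposite levels of COL11A1, with means of -4.96 in Ov4Carbo4 and 5.34 in Ov4Carbo7. The calcium-binding protein gene CALB1 (-9.54), the keratin KRT19 (-8.05), the EGF receptor substrate relative EPS8L1 (-7.75) and the adaptor gene HSH2D (-7.44) came next. On the log2(RPKM + 1) scale COL11A1, CALB1, KRT19, EPS8L1 and HSH2D differed by -4.50, -5.17, -5.38, -3.22 and -1.63. The parental means of CALB1 and KRT19 were 1.11 and 6.21, against Ov4Cis means of -4.34 and -2.45.

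Genes expressed in both populations differed by less. Of the 11549 genes with a mean of at least 1 in both, 574 were called with separate values, 298 higher in Ov4Cis and 276 lower. FLI1, an ETS transcription factor of endothelial and blood cells, was at 5.26, 5.18 and 5.22 in Ov4Cis against 2.25, 0.51 and 1.28 in Ov4Carbo (log2 fold change 3.87, SE 0.33, adjusted p = 2.68e-06). It was followed by DPYD, which degrades pyrimidines and 5-fluorouracil (3.77), the neutrophil chemokine CXCL5 (3.71), the matrix protein TGFBI (3.68) and the carboxypeptidase CPM (3.37). In the other direction LCP1, the actin-bundling protein L-plastin, was at 1.30, 1.32 and 1.61 in Ov4Cis against 6.45, 5.62 and 6.28 in Ov4Carbo (log2 fold change -4.71, SE 0.18, adjusted p = 3.87e-09). LCP1 lies on chromosome 13, whose genes were lower in Ov4Cis as a whole, with a median log2 fold change of -0.73. The slow troponin C gene TNNC1 (-4.15), EPCAM (-4.15), the peptide hormone gene SST (-3.89) and EMX2OS (-3.87), the transcript antisense to the homeobox gene EMX2 (-2.27), were also lower. SST was not called, with adjusted p between 0.0528 and 0.0918, when Ov4Cis replicate 2 or 3 or Ov4Carbo replicate 2 or 3 was left out. Its values were 5.25, 4.37 and 4.31 in Ov4Cis and 7.79, 9.62 and 8.19 in Ov4Carbo. The spread used in the test is pooled over the 5 lines and takes in the parental values of 0.73, -5.31 and -5.11. Whether the counting used strand is not given in the sources used here, so reads of EMX2 and EMX2OS may not be told apart.

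Genes on in 1 population and off in the other were set against the parental level. With limits chosen after the values were seen, 62 called genes had a mean of at least log2 RPKM 1 in Ov4Cis and of at most -2 in Ov4Carbo, and 41 the reverse. Of the 62 genes on in Ov4Cis, 3 had a parental mean of at least 1, 30 had one of at most -2 and 29 lay between. Of the 41 genes on in Ov4Carbo, 32 had a parental mean of at least 1, 1 had one of at most -2 and 8 lay between. Ov4Cis was thus the population away from the parental level at 30 genes that were on and 32 that were off in it, and Ov4Carbo at 1 and 3. These are levels of the parental samples, given with no test.

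**Figure D2:**
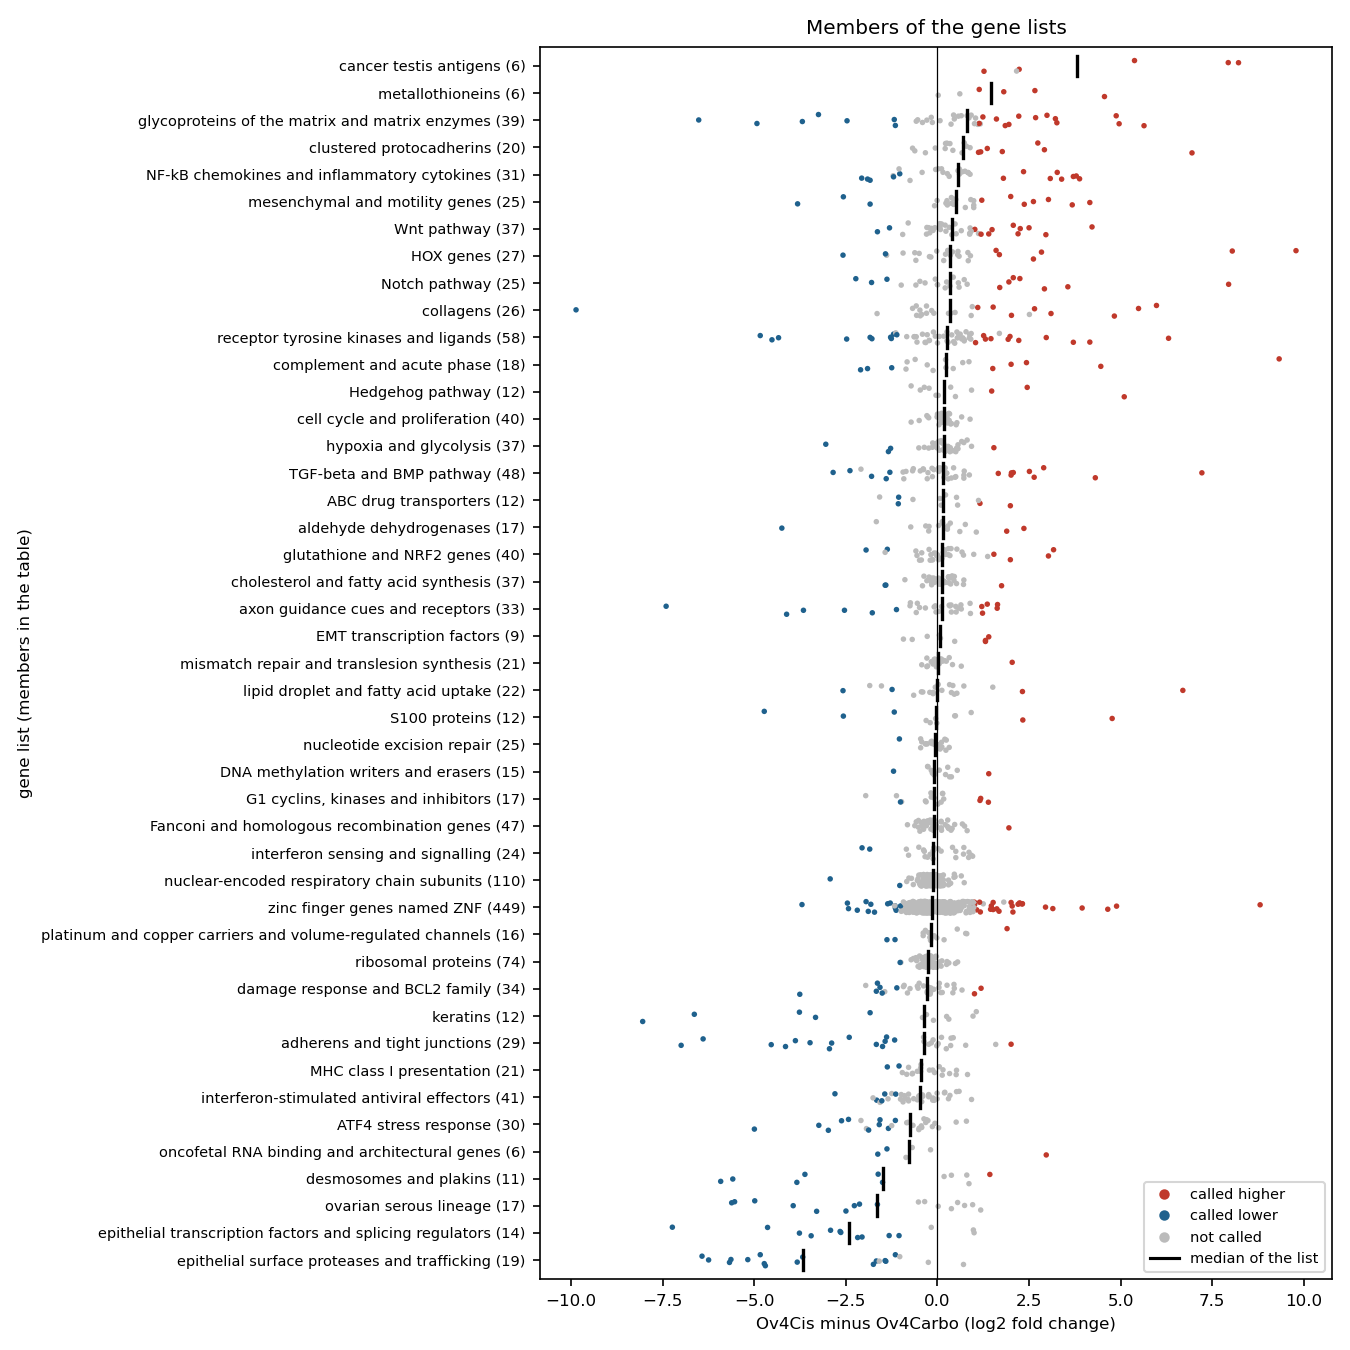
Each point is a member of a gene list, placed by its log2 fold change Ov4Cis minus Ov4Carbo (x axis); rows are lists with their number of members in the table, ordered by the median (black bar), and red and blue mark members called higher and lower. The 4 lists of epithelial transcription factors, surface proteases, serous lineage genes and desmosomes lie at the bottom with medians from -1.5 to -3.68. The cancer testis antigens and the metallothionein list, which also holds MTF1, lie at the top with medians of 3.81 and 1.47.

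Many epithelial genes were lower in Ov4Cis. Over all genes, 7.88% were called higher and 5.9% lower, the shares to set beside each list count below. Over 5 lists of epithelial genes, 51 of 85 members were called lower, against 5.9% of all genes, and 2 were called higher. In bulk RNA, fewer cells of a type and less RNA per cell cannot be told apart. The transcription factors and splicing regulators that maintain the epithelial state had 11 of 14 members lower and 0 higher, with a median log2 fold change of -2.41 against 0.02 over all genes. TFAP2C (0.98) and TFAP2A (1.0), AP-2 factors of epithelial and other tissues, lay just under the fold limit on the higher side, and 1 member was called higher when any 1 sample was left out. ESRP1, which directs epithelial splicing, was at -3.90, -3.74 and -5.21 in Ov4Cis and at 1.82, 3.14 and 3.90 in Ov4Carbo, with no overlap (log2 fold change -7.24, SE 0.48, adjusted p = 2.98e-07). Its paralog ESRP2 (-3.77), the pioneer factor FOXA1 (-2.64) and the ETS factor ELF3 (-2.18) were lower too. GRHL2, an activator of CDH1, was called lower (-3.45) but was near the floor in both populations, at -6.37, -6.52 and -5.38 in Ov4Cis and -4.95, -1.68 and -1.28 in Ov4Carbo, while its parental mean was 3.43. On the log2(RPKM + 1) scale its difference was -0.29.

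Junction genes showed the same direction. Of 29 adherens and tight junction genes, 14 were lower and 1 higher in Ov4Cis. CDH1, the epithelial cadherin, stood at -3.00, -4.06 and -3.49 in Ov4Cis, at 2.35, 2.99 and 3.31 in Ov4Carbo and at a parental mean of 4.63 (log2 fold change -6.40, SE 0.32, adjusted p = 2.8e-08). The tight junction claudin CLDN4 (-7.00), the polarity gene CRB3 (-4.54) and EPCAM, an epithelial adhesion molecule (-4.15), were lower in every Ov4Cis sample than in every Ov4Carbo sample. The exception was CLDN16, a claudin best known from the kidney, which was higher (2.01), and 2 members were higher without Ov4Carbo replicate 1. The catenins that carry cadherins of either type stayed close: CTNNB1 differed by 0.37 (SE 0.15, adjusted p = 0.0824) and CTNND1 by -0.02 (SE 0.10, adjusted p = 0.887), and the scaffold TJP1 by -0.37 (adjusted p = 0.0115), short of the fold limit. The plot of epithelial and mesenchymal genes shows these values sample by sample.

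**Figure D3:**
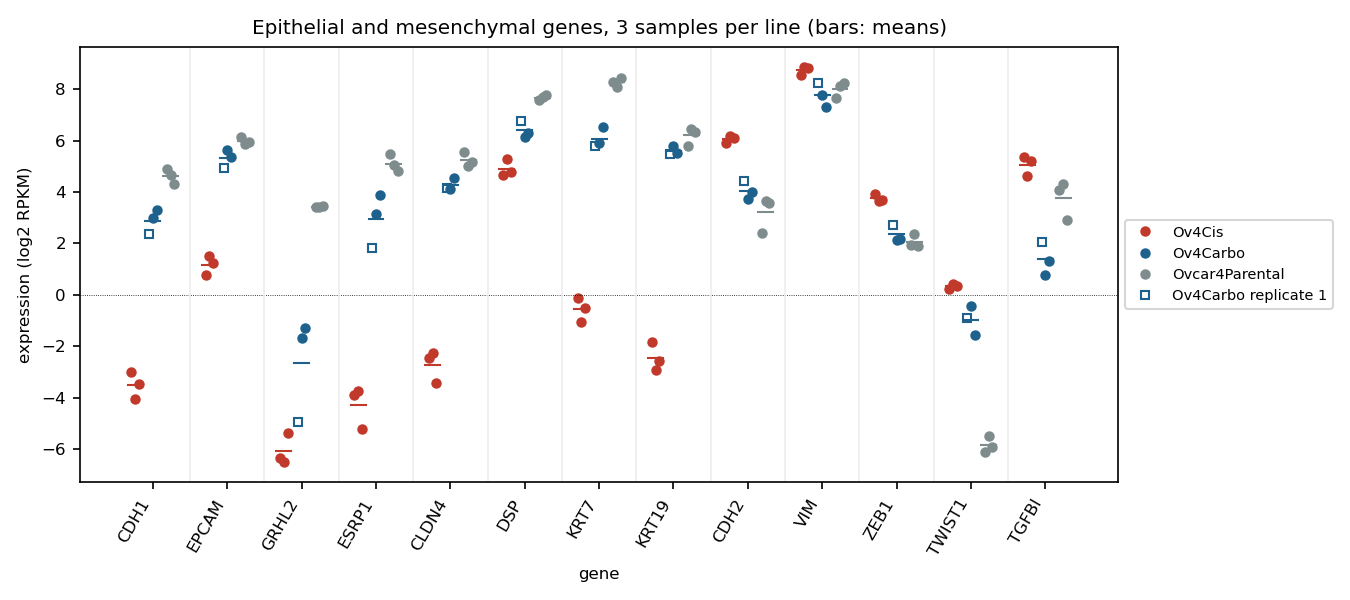
Expression in log2 RPKM (y axis) of 13 epithelial and mesenchymal genes (x axis) in the 3 samples of Ov4Cis (red), Ov4Carbo (blue; the open square is replicate 1) and the parental line (grey), with bars at the means. From CDH1 to KRT19 the Ov4Cis samples lie below all Ov4Carbo samples, and from CDH2 to TGFBI above them.

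The promoters of CRB3 and CLDN4 are shown because both genes were low in Ov4Cis while ZEB1, which is known to bind such sites, was higher. The 250 bases before the RefSeq start are printed 5′ to 3′ (GRCh38.p14, plus strand, chr19:6464021-6464270 for CRB3 and chr7:73830746-73830995 for CLDN4), with the E-box CAGGTG, on either strand, in capitals. CRB3 held 5 matches and CLDN4 held 0, and a link of matches to expression was not tested. The other junction genes named by size, CDH1 and EPCAM, had no promoter in RefSeq's table. Of 35116 RefSeq promoters of this length, 17.5% held at least 1 match. RefSeq's table had a promoter for 24 of the 51 epithelial genes called lower, and the share of these with a match was not counted. A match is a run of letters, not a measured binding site.
CRB3: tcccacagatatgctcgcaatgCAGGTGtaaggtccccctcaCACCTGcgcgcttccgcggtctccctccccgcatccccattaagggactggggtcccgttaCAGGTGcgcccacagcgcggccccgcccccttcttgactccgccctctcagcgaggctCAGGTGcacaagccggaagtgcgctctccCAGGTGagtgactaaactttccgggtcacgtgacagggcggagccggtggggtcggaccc
CLDN4: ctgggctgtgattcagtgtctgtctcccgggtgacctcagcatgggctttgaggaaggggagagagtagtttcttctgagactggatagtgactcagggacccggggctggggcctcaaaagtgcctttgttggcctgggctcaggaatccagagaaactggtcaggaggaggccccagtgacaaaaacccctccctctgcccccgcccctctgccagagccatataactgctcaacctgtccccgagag

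Desmosomes and the intermediate filaments they anchor were split between members. Of 11 desmosome and plakin genes, 6 were lower and 1, DSC3 (1.43), was higher, or 2 without Ov4Carbo replicate 1 or 3. The higher calls numbered 0 after quantile normalization, with either pseudocount, with either filter on the level and with the 6 samples alone. EPPK1 (-5.92), PKP3 (-5.59), PPL (-3.84) and EVPL (-3.62), plakins and a plakophilin of stratified and simple epithelia, fell below log2 RPKM 0 in Ov4Cis. DSP, the core plakin that links desmosomes to keratin, remained high in both populations, at 4.67, 5.27 and 4.79 against 6.75, 6.15 and 6.32 (log2 fold change -1.50, SE 0.19, adjusted p = 6.84e-05). DSG2 and PKP2, the widely expressed desmoglein and plakophilin, were not called (0.18 and 0.38, adjusted p = 0.225 and 0.403).

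Keratins showed a graded pattern. Of 12 keratin genes, 5 were lower and 0 higher (1 higher without Ov4Cis replicate 1). KRT19 went from 5.50, 5.80 and 5.52 in Ov4Carbo to -1.85, -2.93 and -2.57 in Ov4Cis (log2 fold change -8.05, SE 0.25, adjusted p = 5.54e-10). KRT7, a keratin of simple epithelia used to type ovarian tumours, went from 5.79, 5.92 and 6.53 to -0.13, -1.06 and -0.52 (-6.64, SE 0.26). KRT8 was lower by less (-1.84) and its partner KRT18 was not called (-0.30, SE 0.14, adjusted p = 0.123), with 6.56, 6.10 and 6.31 in Ov4Cis. The simple keratin pair of KRT8 and KRT18 was thus still expressed in Ov4Cis, whereas KRT7 and KRT19 were below 1 RPKM in each of its samples.

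Surface proteases, their inhibitors and trafficking genes of polarised epithelia had 15 of 19 members lower and 0 higher, with a median of -3.68. PRSS8, the channel-activating protease prostasin, was at -2.14, -3.03 and -2.46 in Ov4Cis against 2.77, 3.93 and 4.42 in Ov4Carbo (log2 fold change -6.25, SE 0.42, adjusted p = 3.66e-07). The matriptase gene ST14 (-4.70) and the matriptase inhibitor SPINT2 (-5.68) were lower with it. The apical transport protein MAL2 (-5.64) and CDS1, which makes CDP-diacylglycerol (-5.18), had no overlapping values. These 5 lists also gave 51 lower calls without Ov4Carbo replicate 1, with 11, 14, 6, 5 and 15 members.

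Among transcription factors of the epithelial to mesenchymal transition, 3 were higher in Ov4Cis. ZEB1 stood at 3.92, 3.66 and 3.69 in Ov4Cis and at 2.73, 2.15 and 2.17 in Ov4Carbo (log2 fold change 1.40, SE 0.17, adjusted p = 5.19e-05). FOXC1 (1.31) and TWIST1 (1.31) were also called higher, 3 of 9 members against 7.88% of all genes, and 0 were lower (1 without Ov4Carbo replicate 3). The list did not move as a whole, with a median of 0.08. Values were separate and higher at 3 members and separate and lower at 3, against 41% of all genes separate in either direction. TWIST1 was low in both, at 0.22 to 0.42 in Ov4Cis and -1.58 to -0.45 in Ov4Carbo, with a parental mean of -5.85. SNAI1, a repressor of CDH1, was not called (0.47, SE 0.18, adjusted p = 0.0605).

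Mesenchymal and motility genes moved in both directions, with 7 of 25 higher and 3 lower. CDH2, the neural cadherin, was at 5.91, 6.17 and 6.12 in Ov4Cis and 4.44, 3.75 and 3.99 in Ov4Carbo (log2 fold change 2.00, SE 0.30, adjusted p = 0.000274). The hyaluronan receptor CD44 (2.62), the adhesion molecule NCAM1 (3.03) and TGFBI (3.68) were higher as well. The parental means of CD44, NCAM1 and TGFBI were 4.26, 4.29 and 3.77. Each lay between the Ov4Cis means (5.49, 4.71 and 5.07) and the Ov4Carbo means (2.87, 1.69 and 1.38). VIM, the mesenchymal intermediate filament, was high in both, at 8.55, 8.88 and 8.85 against 8.23, 7.77 and 7.32. Its difference of 0.99 log2 units (SE 0.21, adjusted p = 0.00327) missed the fold limit, and without Ov4Carbo replicate 1 it was 1.22 (adjusted p = 0.000462) and was called. The 3 lower members were the smooth muscle light chain MYL9 (-3.82), the metastasis-associated S100A4 (-2.57) and the actin-binding TAGLN (-1.84), all of which are usually counted as mesenchymal. Without Ov4Carbo replicate 1, 12 members were higher and 3 lower.

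Collagens and matrix proteins differed in kind between the populations. Of 26 collagens, 8 were higher in Ov4Cis and 1, COL11A1, was lower, against 7.88% and 5.9% of all genes. The lower calls numbered 2 without Ov4Carbo replicate 1 and 3 without replicate 2 or after quantile normalization. The basement membrane chains COL4A1 (1.52, SE 0.14, adjusted p = 5.54e-06) and COL4A2 (1.10) were higher although they lie on chromosome 13, where the median log2 fold change was -0.73; COL4A2 fell short of the fold limit without Ov4Carbo replicate 2 (0.97). COL12A1, a collagen that bridges fibrils, was at 5.97, 6.44 and 6.78 in Ov4Cis against 4.14, 2.61 and 3.14 in Ov4Carbo (log2 fold change 3.10, SE 0.38). The parental means of COL4A1, COL4A2 and COL12A1 were 7.54, 8.17 and 5.23, each between the means of the populations. COL4A6 (5.98) and COL15A1 (5.49) had larger fold changes with every value below log2 RPKM 0.

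Of 39 matrix glycoproteins and matrix enzymes, 13 were higher and 7 lower, and 16 were higher and 7 lower without Ov4Carbo replicate 1. The interstitial collagenase MMP1 was at 3.91, 1.25 and 2.91 in Ov4Cis and -1.07, -2.74 and -2.74 in Ov4Carbo (log2 fold change 4.88, SE 0.61, adjusted p = 6.72e-05). Fibronectin FN1 (3.26), the gelatinase MMP2 (1.95), the proteoglycan VCAN (1.85) and SPARC (1.24) were higher. The laminin chains LAMB3 (-3.25) and LAMA3 (-1.15) of epithelial basement membranes were lower in Ov4Cis. The microfibril protein FBN2 (-6.52, SE 0.34, adjusted p = 3.69e-08) and the crosslinking enzyme LOXL1 (-4.93, SE 0.31) had no overlapping values.

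Genes of the serous carcinoma lineage separated into a part that was shared and a part that was lower in Ov4Cis. Of 17 lineage genes, 9 were lower and 0 higher, with a median of -1.64, and 1 was higher without Ov4Cis replicate 1 and 2 without Ov4Carbo replicate 1. MUC16, which encodes the CA125 antigen, was at -2.44, -1.17 and -1.57 in Ov4Cis and 3.32, 4.70 and 3.66 in Ov4Carbo (log2 fold change -5.62, SE 0.49, adjusted p = 3.56e-06). The kallikrein KLK6 (-5.54), mesothelin MSLN (-4.99) and the folate receptor FOLR1 (-3.30), targets or serum markers in this cancer, were lower, and so was WFDC2, the HE4 marker (-1.64). The lineage transcription factors PAX8 (0.02, SE 0.12, adjusted p = 0.938), MECOM (0.55, adjusted p = 0.00949) and SOX17 (0.96, adjusted p = 0.0102) were not called lower, and SOX17 was called higher without Ov4Carbo replicate 1 (1.16, adjusted p = 0.0034). WT1, another serous marker, was low in all 6 samples, between -3.15 and -0.98, and was not called (1.18, adjusted p = 0.0937).

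Markers of other cell types were read from lists of 10 to 14 genes. Of 10 endothelial markers the table holds 7, of which 3 were higher and 1, ESAM (-1.81), was lower. ESAM had overlapping values or a mean under log2 RPKM 1 in both populations. The receptor TIE1 was at 5.59, 5.54 and 5.43 in Ov4Cis and 0.31, -0.03 and 0.66 in Ov4Carbo, with a parental mean of 0.18 (log2 fold change 5.20, SE 0.30, adjusted p = 1.06e-07). CDH5, the vascular endothelial cadherin, was at 4.98, 5.29 and 5.12 against 2.41, 2.08 and 1.97 (2.98, SE 0.14), and KDR, a VEGF receptor, was called (3.71) with all values below log2 RPKM 0. The ETS factor ERG, a defining endothelial gene, was not called (0.44, adjusted p = 0.13), and VWF was not called (1.10, adjusted p = 0.155) but was without Ov4Carbo replicate 1 (1.68, adjusted p = 0.0263). The summed level of the list was log2 RPKM 6.60 to 6.73 in Ov4Cis and 4.13 to 4.38 in Ov4Carbo.

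The table holds 3 of 14 haematopoietic markers, 1 called higher, the monocyte receptor CD14 (1.07; 0.88 without Ov4Cis replicate 1), at -0.67 to 0.11 in Ov4Cis. The summed haematopoietic level was 2.13 to 2.24 in Ov4Cis and 1.32 to 2.11 in Ov4Carbo. Of 6 fibroblast markers in the table, PDGFRB was higher (4.16) and the proteoglycan LUM lower (-3.69), and the summed level was 2.27 to 2.86 against 2.73 to 2.98. PDGFRB and LUM each had overlapping values or a mean under log2 RPKM 1 in both populations. The higher fibroblast calls numbered 2 without Ov4Cis replicate 2 or Ov4Carbo replicate 1 and 3 without Ov4Carbo replicate 3. COL1A1, a defining fibroblast gene, was not called (-0.43, adjusted p = 0.0756). Among 9 mesothelial markers, MSLN and the mucin-like PDPN (-1.32) were lower and 0 higher (1 without Ov4Carbo replicate 1). The part of other cells in any result was not tested.

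The TGF-beta and BMP pathway has ligands that signal through SMAD proteins and secreted antagonists that hold them back. Of 48 genes, 9 were higher and 5 lower in Ov4Cis, against 7.88% and 5.9% of all genes. Among ligands, TGFB1 was at 6.0, 5.79 and 5.90 in Ov4Cis and 4.66, 3.96 and 4.09 in Ov4Carbo (log2 fold change 1.66, SE 0.16, adjusted p = 6.43e-06), and TGFB3 (2.64) and TGFB2 (2.51) were higher at low levels. The receptor TGFBR2 was higher (2.01, SE 0.32, adjusted p = 0.000472). The BMP antagonist GREM1 was at 3.12, 4.53 and 5.05 against -0.97, -4.47 and -3.52 (7.22, SE 0.78, adjusted p = 2.15e-05), and the antagonist NOG (4.31) and the latent TGF-beta binding protein LTBP2 (2.90) were higher with it. On the BMP side the ligand BMP7 (-1.80), the transducer SMAD9 (-2.85, on chromosome 13) and the inhibitor of differentiation ID4 (-2.39) were lower. The parental mean of GREM1 was 3.45, close to Ov4Cis.

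In the Notch pathway, in which membrane ligands release an intracellular receptor fragment that induces HES and HEY repressors, 7 of 25 genes were higher and 3 lower. The receptor NOTCH3 was at 3.94, 3.21 and 3.35 in Ov4Cis and 0.84, 1.57 and 2.23 in Ov4Carbo (log2 fold change 1.95, SE 0.29, adjusted p = 0.000284). The ligand DLL1 (3.56) and the glycosyltransferase LFNG (2.92), which tunes ligand choice, were higher from levels below log2 RPKM 0 in Ov4Carbo. The target repressors went opposite ways: HEY2 was higher (7.95, SE 0.54, adjusted p = 4.58e-07), whereas HEY1 (-2.23) and HES4 (-1.80) were lower. HEY2 was at 1.33, 2.27 and 1.98 in Ov4Cis, below -5 in all Ov4Carbo samples and at a mean of 2.97 in the parental line.

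Of 37 Wnt pathway genes, 10 were higher and 2 lower, against 7.88% and 5.9% of all genes. The receptor FZD8 was higher (2.20, SE 0.39, adjusted p = 0.000926) and the ligand WNT10B was higher at a low level (1.49), while the receptor FZD3 (-1.64) and the Müllerian ligand WNT7A (-1.31) were lower. WNT7A had the highest level of these 4 on the log2 RPKM scale, which is per length, at 4.27, 4.64 and 4.88 in Ov4Cis and 6.26, 6.09 and 5.35 in Ov4Carbo. Of 12 Hedgehog genes 3 were higher, among them the transcription factor GLI2 (2.45) and the ligand-binding inhibitor HHIP (5.10), and 0 lower (1 without Ov4Carbo replicate 1). Each of the called Hedgehog genes had overlapping values or a mean under log2 RPKM 1 in both populations.

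Receptor tyrosine kinases and their ligands were called in about equal numbers, 11 of 58 higher and 10 lower, against 7.88% and 5.9% of all genes. The higher calls numbered 7 without Ov4Cis replicate 3, Ov4Carbo replicate 2 or Ov4Carbo replicate 3. Without Ov4Carbo replicate 1, 15 were higher and 11 lower. ERBB3, the neuregulin receptor of epithelial cells, was at -0.32, -1.27 and -1.98 in Ov4Cis and 2.26, 3.90 and 4.79 in Ov4Carbo (log2 fold change -4.84, SE 0.60, adjusted p = 6.45e-05). The ephrin receptor EPHA1 (-4.52) and the collagen receptor DDR1 (-1.84) were lower, and the intracellular FGF-related gene FGF13 was higher (1.46). Of 33 axon guidance genes, 5 were higher and 6 lower. ROBO1, a receptor for slit proteins, was at -2.31, -0.83 and -1.71 in Ov4Cis against 5.97, 5.59 and 5.83 in Ov4Carbo (-7.41, SE 0.30, adjusted p = 4.41e-09). The parental mean of ROBO1 was 0.19, between the populations, and its ligand SLIT2 (-2.54) and the semaphorins SEMA3B (-4.12) and SEMA4A (-1.78) were lower too.

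Of 16 platinum carriers, 1 was higher and 2 lower, against 13.8% of all genes called in either direction. SLC31A1, the copper transporter CTR1 that can take up platinum, was at 3.39, 3.35 and 3.27 in Ov4Cis and 3.66, 3.35 and 4.16 in Ov4Carbo and was not called (-0.39, SE 0.17, adjusted p = 0.101). The copper exporter ATP7B was lower in Ov4Cis, at -0.15, -0.31 and -0.68 against 0.66, 0.97 and 1.37 (-1.38, SE 0.21, adjusted p = 0.000309), and lies on chromosome 13. ATP7A, the other copper exporter, was higher by 0.54 (SE 0.15, adjusted p = 0.0175), short of the fold limit. LRRC8D, a subunit of the volume-regulated anion channel that admits cisplatin, was lower (-1.16, SE 0.29, adjusted p = 0.00916), although Ov4Carbo replicate 1 (3.35) lay close to the Ov4Cis values of 3.31, 2.93 and 2.92; its call was lost without Ov4Carbo replicate 2 (-1.0) or 3 (-0.89). SLC47A2, an organic cation extruder, was called higher (1.90) with every value below -1.

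Of 12 ABC drug transporters, 2 were higher and 2 lower, against 7.88% and 5.9% of all genes. ABCC2, which exports glutathione conjugates of platinum, was at 0.26, -0.02 and 0.54 in Ov4Cis and -1.76, -1.28 and -2.17 in Ov4Carbo (1.99, SE 0.31, adjusted p = 0.000358), and ABCB6 was higher by 1.16. ABCB6 had overlapping values or a mean under log2 RPKM 1 in both populations. ABCC4 (-1.07, on chromosome 13) and ABCC10 (-1.06) were lower, ABCC4 losing its call without Ov4Cis replicate 1 or Ov4Carbo replicate 3 (-0.96 in both cases), and ABCC1 was not called (0.07, adjusted p = 0.588). ABCB1, the P-glycoprotein gene, was at -6.23, -6.37 and -6.23 in Ov4Cis and -0.41, -6.37 and -7.30 in Ov4Carbo. Replicate 1 of Ov4Carbo alone was above -6, the log2 fold change was -1.58 (SE 1.24, adjusted p = 0.347), and without that sample it was 0.56 (adjusted p = 0.106).

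Metallothioneins are small cysteine-rich proteins that bind zinc, copper and platinum. Their list had 4 of 6 members higher and 0 lower, with a median of 1.47. It holds 5 metallothionein genes and MTF1, which is not a metallothionein, and the 4 called members are all metallothionein genes. MT2A was at 6.28, 6.36 and 6.40 in Ov4Cis and 5.17, 4.81 and 3.64 in Ov4Carbo (log2 fold change 1.81, SE 0.35, adjusted p = 0.00168). MT1E was at 4.99, 4.98 and 5.01 against 1.00, 0.74 and -0.45 (4.56, SE 0.33, adjusted p = 7.71e-07), and MT1F (2.66) and MT1X (1.14; 0.82 and not called without Ov4Carbo replicate 3) were higher by less. The parental means of 4.79 for MT1E and 6.28 for MT2A lay at the Ov4Cis level. MT1A was not called (0.02, adjusted p = 0.966). These genes are near-identical copies on chromosome 16, so reads may be split among them.

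The promoters of MT2A and MT1X are shown because metal response elements in them are the known route by which metals induce these genes. The 250 bases before the RefSeq start are given 5′ to 3′ (GRCh38.p14, plus strand, chr16:56608334-56608583 for MT2A and chr16:56682220-56682469 for MT1X), with matches to the core TGCGCNC or TGCACNC on either strand in capitals. MT2A held 7 matches and MT1X 4. At least 1 match was found in 24.8% of 35116 RefSeq promoters of this length. MT1E and MT1F were not in RefSeq's table used here.
MT2A: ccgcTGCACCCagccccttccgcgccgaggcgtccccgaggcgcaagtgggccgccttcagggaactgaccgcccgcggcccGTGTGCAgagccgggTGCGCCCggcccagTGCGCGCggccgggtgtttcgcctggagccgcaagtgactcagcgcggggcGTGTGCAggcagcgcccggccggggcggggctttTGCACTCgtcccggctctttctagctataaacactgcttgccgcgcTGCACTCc
MT1X: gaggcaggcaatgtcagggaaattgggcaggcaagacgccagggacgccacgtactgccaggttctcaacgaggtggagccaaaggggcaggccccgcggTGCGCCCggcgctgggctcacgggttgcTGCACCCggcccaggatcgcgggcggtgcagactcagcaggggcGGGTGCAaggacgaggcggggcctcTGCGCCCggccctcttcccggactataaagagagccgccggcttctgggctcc

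The glutathione system, which conjugates platinum, and its regulator NRF2 gave 4 of 40 genes higher and 2 lower. These counts lie near the 7.88% and 5.9% of all genes. The lower calls numbered 1 without Ov4Cis replicate 3 or Ov4Carbo replicate 3. Without Ov4Carbo replicate 1, 6 were higher and 3 lower, against 9.02% and 7.71% of all genes. NFE2L2, the NRF2 gene (-0.02, SE 0.12, adjusted p = 0.929), its target NQO1 (-0.05, SE 0.22), the synthesis subunit GCLM (0.22, SE 0.14), the transferase GSTP1 (0.04, SE 0.15) and the cystine importer SLC7A11 (0.03, SE 0.27) were not called. AKR1C3, an aldo-keto reductase, was higher (3.17, SE 0.29, adjusted p = 4.81e-06), with a caveat on reads shared with the other AKR1C genes, and the transferase GSTO2 was lower (-1.37). Of 17 aldehyde dehydrogenases, 2 were higher and 1 lower, but 1 was higher without Ov4Cis replicate 3 or Ov4Carbo replicate 2 and 2 were lower without replicate 1 of either population. ALDH1A1, a retinaldehyde dehydrogenase used as a stem cell marker, was at 0.70, 0.67 and 0.39 in Ov4Cis and 4.47, 5.33 and 4.72 in Ov4Carbo (-4.25, SE 0.46, adjusted p = 2.07e-05), with a parental mean of -0.58. The mitochondrial ALDH6A1 was higher (2.36, SE 0.14, adjusted p = 1.31e-07).

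DNA repair lists gave 0 or 1 call in each direction. Of 25 nucleotide excision repair genes, the route that removes platinum adducts, 0 were higher and 1 was lower: ERCC5, the endonuclease XPG, at 0.45, 0.17 and 0.03 in Ov4Cis and 1.13, 1.71 and 0.93 in Ov4Carbo (-1.04, SE 0.20, adjusted p = 0.00163), on chromosome 13. It missed the fold limit without Ov4Cis replicate 3 (-0.95) or Ov4Carbo replicate 2 (-0.81). ERCC1 differed by 0.32 (SE 0.11, adjusted p = 0.0396), under the fold limit. Of 47 Fanconi and homologous recombination genes 1 was higher, the meiotic recombinase DMC1 (1.95), with every value below -1, and 0 lower. BRCA1 was not called (-0.27, adjusted p = 0.154), and BRCA2, on chromosome 13, missed the fold limit (-0.82, SE 0.16, adjusted p = 0.00177). Mismatch repair and translesion synthesis gave 1 of 21 higher, the polymerase POLN (2.04), again below -1 throughout.

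Of 34 damage response and BCL2 family genes, 2 were higher and 6 lower, and 1 was higher without replicate 2 or 3 of either population. Without Ov4Carbo replicate 1, 2 were higher and 9 lower. The damage-induced genes GADD45A (-1.64) and SESN2 (-1.57), the survival gene BCL2 (-1.51) and the BH3-only death genes HRK (-3.76), BIK (-1.67) and PMAIP1 (-1.11) were lower, and the BCL2 relative BOK was higher (1.19; 0.98 without Ov4Carbo replicate 2). HRK and BIK each had overlapping values or a mean under log2 RPKM 1 in both populations. PMAIP1 lost its call when any 1 sample other than Ov4Carbo replicate 1 was left out (adjusted p from 0.0558 to 0.123). CDKN1A, the damage-induced cell cycle inhibitor p21, was not called (-1.96, adjusted p = 0.0571) and was called without Ov4Carbo replicate 1 (-2.45, adjusted p = 0.0276). MDM2 (0.13, adjusted p = 0.464) and BAX (0.04, adjusted p = 0.798), other damage response genes, were not called.

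Proliferation genes gave 0 of 40 called in either direction (1 higher without replicate 1 of either population). Values were separate and higher at 5 members and separate and lower at 3. Over all genes, 41% had separate values in either direction. MKI67, the proliferation antigen, was at 6.50, 6.90 and 6.83 in Ov4Cis and 6.29, 6.21 and 6.16 in Ov4Carbo, a difference of 0.53 (SE 0.16, adjusted p = 0.021). Of 17 regulators of G1, 3 were higher, including the kinase CDK6 (1.18) and the inhibitor CDKN2C (1.16), and 1 was lower, the inhibitor CDKN2B (-1.01). The higher calls numbered 1 without replicate 2 of either population, and the lower calls ranged from 0 to 3 as single samples were left out, with 3 without Ov4Carbo replicate 1. Both inhibitors lay near the fold limit and lost their calls without single samples, CDKN2C without Ov4Cis replicate 2 (0.99) or Ov4Carbo replicate 2 (0.97) and CDKN2B without Ov4Cis replicate 1 (-0.84) or Ov4Carbo replicate 3 (-0.78). CCNE1 (0.27, adjusted p = 0.4) and MYC (0.14, adjusted p = 0.738), often amplified in this cancer, were not called. RB1, on chromosome 13, was just short of the fold limit (-0.98, SE 0.12, adjusted p = 6.36e-05).

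Interferon genes depended on the sample that stood apart. Of 41 antiviral effectors 5 were lower and 0 higher with all samples (median -0.49), and 3 were lower and 3 higher without Ov4Carbo replicate 1 (median -0.03). The lower calls numbered 3 without Ov4Cis replicate 1 or 3 and 10 without Ov4Carbo replicate 3. IFIT1, which binds viral RNA, was at 1.79, 3.04 and 2.29 in Ov4Cis and 5.28, 3.53 and 2.64 in Ov4Carbo, so that its call (-1.44, adjusted p = 0.0395) was lost without replicate 1 (-0.71, adjusted p = 0.0834). OASL, an oligoadenylate synthase relative, lost its call in the same way (-1.14 with all samples, -0.82 and adjusted p = 0.145 without). Both also lost it without Ov4Cis replicate 1, Ov4Cis replicate 3 or Ov4Carbo replicate 2 (adjusted p from 0.0564 to 0.185). IFITM1, which blocks viral entry, kept its call (-2.80 and -2.52), at 0.51, 0.81 and 0.24 against 3.88, 3.32 and 2.76, while its neighbour IFITM3 did not differ by more than its error (-0.01, SE 0.22).

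The RNA sensor IFIH1 was lower with all samples (-2.06, SE 0.51, adjusted p = 0.00868) and without replicate 1 (-1.40, adjusted p = 0.0173). IFIH1 and DHX58 (-1.85) were the 2 of 24 sensing and signalling genes called, and 5 of the 24 were called higher without replicate 1. DHX58 had overlapping values or a mean under log2 RPKM 1 in both populations. In the class I antigen presentation list 2 of 21 were lower and 0 higher (1 higher without replicate 1 of either population). Both members, HLA-F (-1.05) and the peptide transporter TAP1 (-1.37), lost the call without replicate 1 (adjusted p = 0.102 and 0.0635), and also without Ov4Cis replicate 1 (0.113 and 0.0891) or 3 (0.0742 and 0.0932). The light chain B2M was not called (0.05, adjusted p = 0.849).

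Targets of ATF4, the factor that induces amino acid supply genes under stress, were in part lower in Ov4Cis, and Ov4Carbo replicate 1 lay on the Ov4Cis side. Of 30 members, 10 were lower and 0 higher (median -0.74), and 16 were lower without that sample (median -1.14). Leaving out Ov4Cis replicate 2 or 3 or Ov4Carbo replicate 2 or 3 gave 6 lower each time. Asparagine synthetase ASNS was at 4.65, 2.60 and 3.01 in Ov4Cis and 4.08, 6.80 and 7.25 in Ov4Carbo, so the groups overlapped (log2 fold change -2.62, SE 0.80, adjusted p = 0.0239; -3.60 without replicate 1). Replicate 1 of Ov4Cis was the highest Ov4Cis sample for ASNS, CHAC1, CTH, TRIB3 and DDIT3. CHAC1, which degrades glutathione, was called (-2.43) and so was CTH, which makes cysteine (-1.88). ASNS, CHAC1 and CTH lost their calls when any 1 of those 4 samples was left out (adjusted p from 0.0724 to 0.0957). ATF4 (-0.81, adjusted p = 0.0815), DDIT3 (-1.25, adjusted p = 0.0871) and TRIB3 (-1.94, adjusted p = 0.0504) were not called with all samples and were without Ov4Carbo replicate 1 (-1.23, -1.89 and -2.73). The glycine transporter SLC6A9 (-5.00), the glycoprotein hormone STC2 (-3.24), NUPR1 (-2.98) and the amino acid exchanger SLC7A5 (-1.59) were called either way.

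**Figure D4:**
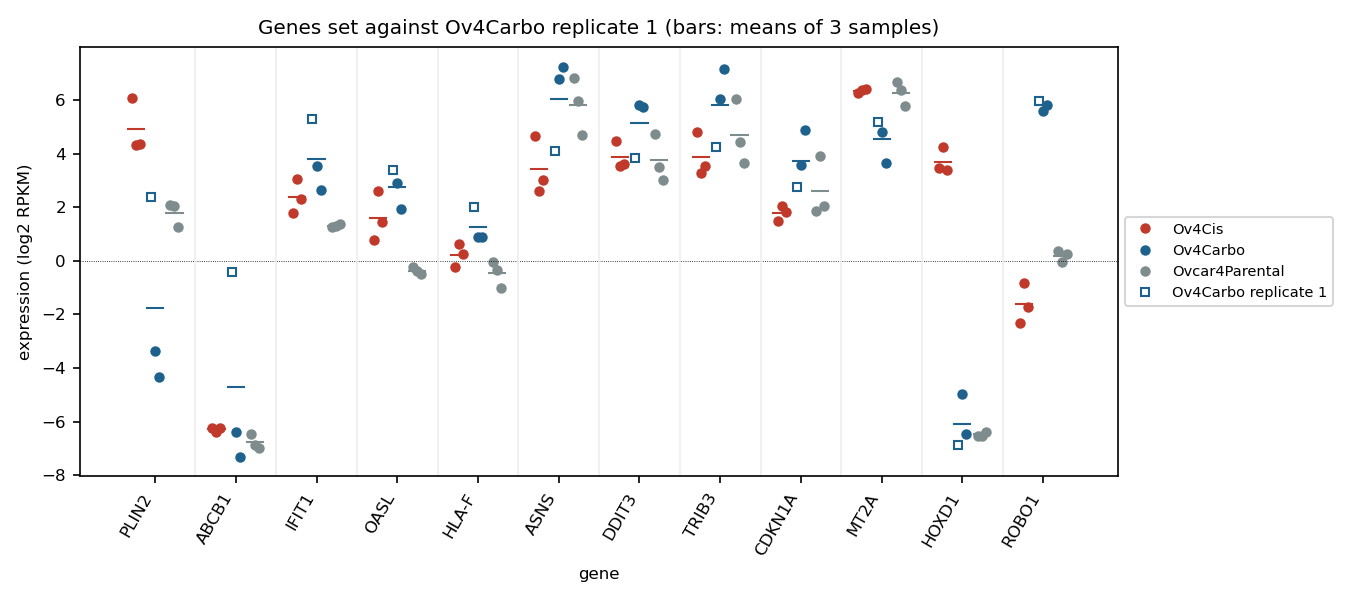
Expression in log2 RPKM (y axis) of 12 genes (x axis) in Ov4Cis (red), Ov4Carbo (blue; the open square is replicate 1) and the parental line (grey), 3 samples each, with bars at the means. Replicate 1 lies at 2.39 for PLIN2 and -0.41 for ABCB1, far above the other Ov4Carbo samples, at the Ov4Cis level for ASNS and DDIT3, and among its own replicates for ROBO1 and HOXD1.

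Among lipid droplet genes, 2 of 22 were higher and 2 lower, against 7.88% and 5.9% of all genes. The lower calls numbered 0 without Ov4Cis replicate 2, Ov4Cis replicate 3 or Ov4Carbo replicate 2 and 1 without Ov4Carbo replicate 3. PLIN2, the coat protein of lipid droplets, was at 6.09, 4.31 and 4.36 in Ov4Cis and 2.39, -3.37 and -4.35 in Ov4Carbo, so it was higher with and without replicate 1 (6.70, SE 1.28, adjusted p = 0.0016; 8.78, adjusted p = 5.15e-07). Its size therefore rests on which Ov4Carbo samples are used. The single-cell lines spanned the same range, with means of -5.23 in Ov4Carbo4 and 5.44 in Ov4Carbo7. ACSL5, which activates fatty acids, was higher by 2.32. Of 37 cholesterol and fatty acid synthesis genes, SCD5 (1.75) was higher (2 genes without Ov4Carbo replicate 3) and ACSS2 (-1.43) and ELOVL7 (-1.41) were lower. ACSS2 lost its call without Ov4Cis replicate 2 or 3 or Ov4Carbo replicate 2 or 3 (adjusted p from 0.0523 to 0.075). Hypoxia and glycolysis gave 1 of 37 higher, EPAS1 (1.54), the HIF2 alpha gene, and 3 lower, among them VEGFA (-1.28); EPAS1 was below the fold limit without Ov4Carbo replicate 2 (0.94) and VEGFA without Ov4Carbo replicate 3 (-1.0). The lower hypoxia calls numbered 1 without Ov4Cis replicate 2 or 3 and 0 without Ov4Carbo replicate 3, and 3 genes were higher without Ov4Carbo replicate 1.

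Chemokines and inflammatory cytokines induced by NF-kB had 8 of 31 members higher and 5 lower. CXCL5, a neutrophil attractant, was at 6.30, 5.30 and 5.47 in Ov4Cis and 3.87, 0.98 and 1.09 in Ov4Carbo (log2 fold change 3.71, SE 0.60, adjusted p = 0.000519). CXCL6 (3.88), the monocyte attractant CCL2 (2.35) and, at low levels, IL1B (3.79) were higher. The cytokine genes IL32 (-2.07) and TNF (-1.91) were lower, so the list did not move as a unit. Complement and acute phase genes gave 5 of 18 higher and 3 lower. The copper-carrying ceruloplasmin CP was at 7.26, 7.28 and 7.16 against 6.02, 5.03 and 4.63 (2.01, SE 0.26), and apolipoprotein APOE was lower (-1.91, adjusted p = 0.0168; 0.0634 without Ov4Cis replicate 3 and 0.0582 without Ov4Carbo replicate 2). The pooled spread of APOE takes in the Ov4Carbo7 values of -1.48, 0.81 and -1.10. Of the lower members, CFB (-2.10), near the floor in both, lost its call when any 1 sample other than Ov4Cis replicate 3 was left out (adjusted p from 0.0506 to 0.132).

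Of 49 listed cancer testis antigens, proteins normally limited to germ cells, the table holds 6, and 5 of these were higher, with a median of 3.81. The threshold of the table has no stated rule, so members high only in Ov4Cis may have passed it through that line. MAGEC1, for example, had a mean of 1.14 in Ov4Cis and of -1.71 or less in each other line. The count and the median are therefore no support for a change of the whole family. MAGEA3 was at 4.69, 4.64 and 4.70 in Ov4Cis and -4.47, -2.47 and -3.68 in Ov4Carbo (log2 fold change 8.22, SE 0.46, adjusted p = 8.24e-08), and MAGEA6 (7.94) shares almost its whole sequence, so their reads may be split. MAGEC1 (5.38) was higher, and PRAME was expressed in both populations, at 6.38, 5.85 and 6.05 against 4.88, 4.90 and 4.70 (1.27, SE 0.13). PASD1, the member not called, was higher in each Ov4Cis sample (2.16, SE 0.98, adjusted p = 0.109). The parental mean of MAGEA3 was 0.55. DNMT3B, a DNA methyltransferase, was lower (-1.20, SE 0.42, adjusted p = 0.0413), 1 of 15 methylation genes lower and 1, the methyl-CpG reader ZBTB38 (1.40), higher. DNMT3B lost its call without replicate 2 or 3 of either population (adjusted p from 0.119 to 0.142).

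HOX genes, which give cells positional identity along the Müllerian tract, had 6 of 27 higher and 2 lower, against 7.88% and 5.9% of all genes. The higher members were HOXD1, HOXD8 (8.05, SE 0.47) and genes of the HOXA cluster, of which HOXA11 was at 3.95, 4.10 and 3.98 in Ov4Cis and 1.14, 1.19 and 1.19 in Ov4Carbo (2.84, SE 0.17, adjusted p = 1.48e-07). HOXA13 (2.62) and HOXA10 (1.69) were higher with it. The 2 lower members were in the HOXB cluster, HOXB9 (-2.58, SE 0.50) and HOXB5 (-1.42, SE 0.34). Clustered protocadherins, neuronal surface identity proteins, had 7 of 20 higher and 0 lower (1 lower without Ov4Carbo replicate 1), led by PCDHB5 (6.95) and PCDHB16 (2.92). The beta cluster genes are close copies, so their reads may be shared.

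Large families were counted whole. Of 449 zinc finger genes named ZNF, 25 were higher and 14 lower, with a median of -0.14, and 25 were lower without Ov4Carbo replicate 1; ZNF385D (8.81) and ZNF711 (-3.70) were the largest in each direction with a mean of at least 1 in the higher population. Ribosomal proteins gave 0 higher and 1 lower of 74 (2 without Ov4Cis replicate 3 or Ov4Carbo replicate 1), and nuclear-encoded respiratory subunits 0 higher and 2 lower of 110, COX7A1 (-2.93) and NDUFS6 (-1.03; -0.95 without Ov4Carbo replicate 2 and -1.0 without replicate 3). S100 calcium-binding proteins gave 2 of 12 higher and 3 lower, S100A14 (-4.73), S100A4 and S100A1 (-1.18), of which S100A1 lost its call without Ov4Cis replicate 3 or Ov4Carbo replicate 2 or 3 (adjusted p from 0.0545 to 0.0808). Among oncofetal genes, the chromatin architectural factor HMGA1 was lower (-1.38, SE 0.18, adjusted p = 0.000111), at 6.42, 5.90 and 5.98 in Ov4Cis and 7.25, 7.30 and 7.89 in Ov4Carbo.

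By chromosome, chromosome 13 stood lowest in Ov4Cis. Its 211 genes with a mean of at least log2 RPKM 1 had a median log2 fold change of -0.73, and 19% of them were higher in Ov4Cis, against 50.2% of 11994 genes on all chromosomes. Set against the parental means, the median chromosome 13 gene was at -0.82, -0.81 and -0.81 in the 3 Ov4Cis samples and at -0.14, -0.05 and -0.02 in the Ov4Carbo samples. Chromosome 6 was lower by less, with a median of -0.23 and 31.1% of genes higher. Chromosomes 22 (0.29, 78.7% higher), 14 (0.24, 71.9%) and 7 (0.18, 66.3%) were higher. For chromosomes 14 and 7 the Ov4Carbo samples were the ones away from the parental level, at -0.23 to -0.22 and -0.15 to -0.13, while Ov4Cis lay between -0.01 and 0.05. On chromosome 17 both populations lay above the parental level, by 0.33 to 0.37 in Ov4Cis and 0.29 to 0.31 in Ov4Carbo, so that the median difference between them was 0.04. Leaving out Ov4Carbo replicate 1 gave -0.74 for chromosome 13 and 0.33 for chromosome 22. These medians describe RNA; copy number was not measured.

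**Figure D5:**
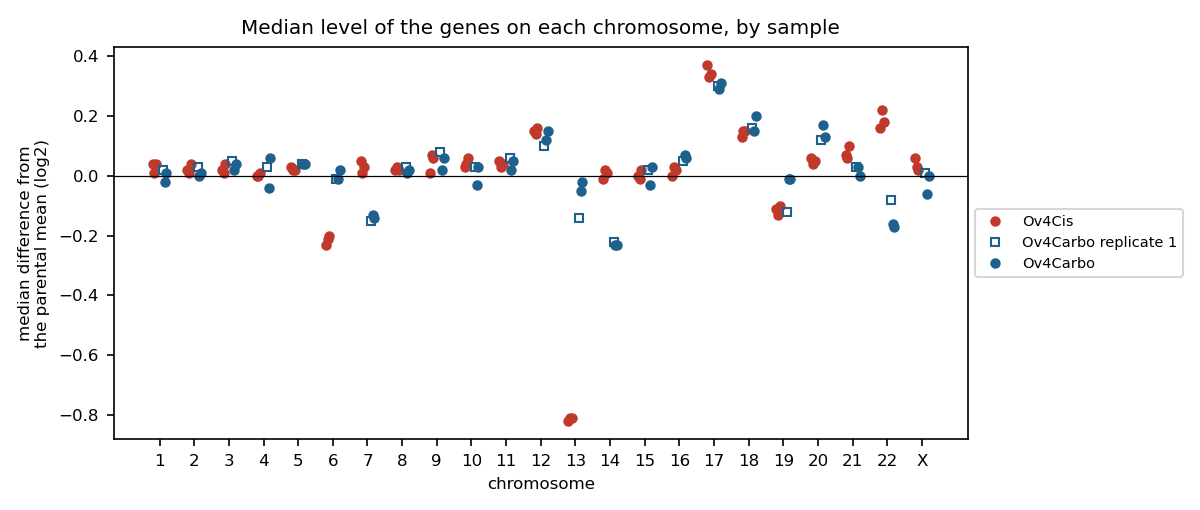
Median over the genes of each chromosome (x axis; genes with a mean of at least log2 RPKM 1) of the difference from the parental mean in log2 units (y axis), for each sample of Ov4Cis (red) and Ov4Carbo (blue; the open square is replicate 1). On chromosome 13 the 3 Ov4Cis samples lie near -0.8 and the Ov4Carbo samples between -0.14 and -0.02.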

How the data were processed

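PolyA RNA of 5 lines, 3 samples each, was sequenced. The authors deposited log2 RPKM values made with cqn (conditional quantile normalization, which corrects for length and GC content), per the name of the table. A threshold in that name has no rule given in the sources used here. Per the submitters' processing notes, BWA 0.7.15-r1140, HTSeq and the build hg19/GRCh37 were used. Base 2 was checked on the totals of the unlogged values (1.56 to 1.65 times those that RPKM implies, against 9.03 to 9.97 for base e). The median of each of the 6 samples was 2.77, which normalization sets, so differences in total RNA are not measured.

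Symbols matched 16448 of 16604 genes, and GENCODE v29 gave chromosome names for 16499. Promoters came from RefSeq (GRCh38.p14), with a promoter for 11161 symbols. A linear model with a coefficient per line was fitted to the 15 samples (R 4.3.3, limma 3.58.1, two-sided, defaults, Benjamini-Hochberg over all genes). The 5 lines share 1 estimate of the spread. Fold changes are differences of means, given with the moderated SE. The p-values measure the spread between these samples. On simulated data for this comparison, 172 of 200 genes changed by 1.5 log2 units were recovered among 16604, with 0 false calls. With a change of 2 log2 units, 186 of 200 were recovered, with 1 false call. How many genes are recovered or falsely called when a sample stands apart or the lines differ in spread was not tested.

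Named genes were called genes with separate values: the 5 highest and 5 lowest with a mean of at least 1 in the higher line, the same with a mean of at least 1 in both, up to 4 members of each list by size, and defining genes. Other genes named, among them members not called and those of small counts, were chosen after their values were seen. The members and lists were chosen with earlier results of these data known. Alternatives were other variance models, sample weights, scalings, pseudocounts of 1 and 0.1, filters, samples and thresholds. Python 3.11.15 with pandas 2.3.3 and matplotlib 3.10.9 served for counts and plots. Some genes are not reported here.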

Additional observations from a re-analysis of the deposited data

How the results depend on the processing

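The count of 2288 genes stayed within 1.5 times under a variance trend, a robust prior, sample weights, quantile normalization, centring, log2(RPKM + 0.1), a filter on the level in either line, the 6 samples alone, a term for the title series, the second title series alone (added after the data were seen) and an adjusted p under 0.01. It fell to 958 (511 higher, 447 lower) on the log2(RPKM + 1) scale and to 840 (385 and 455) among the 12037 genes with a mean of at least 1, and it rose to 5683 (3006 and 2677) with no limit on the fold change. The filter on either line left 806 higher. Genes higher in Ov4Cis made up 57.2% of the calls, 45.8% under the filter at a mean of 1 and 50.2% after quantile normalization; the median of all genes lay between 0.001 and 0.027 throughout. Leaving out 1 sample gave 2053 to 2778 calls, 1169 to 1498 higher and 884 to 1280 lower; the upper value of each range came without Ov4Carbo replicate 1. A term for the title series gives the same estimates as leaving out that sample, since no other line occurs in both series, so it is no separate check. Same-numbered samples of the 2 lines did not deviate together (correlations of -0.33, -0.26 and -0.17), so the numbers were not taken to pair the samples. A replicate block gave 2231 calls.

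Of 201 called genes named in the text or by the rule, 136 were called under all alternatives run for them and 0 changed sign. On the log2(RPKM + 1) scale 46 lost the call, the cause of which was not tested; without a single sample 30 did, with the 6 samples alone 24 and with the replicate block 4. ABCB1, which was not called, ranged from -2.89 to 0.56 over the fits that leave out a sample, and was 0.56 with a title series term or the second series alone. Depth is unknown, so counting error at low levels cannot be given.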
